A study of Zea mays with 4 samples.

Results

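The peaks described here are the DAP-seq sites of 4 maize transcription factors that lie near the tips of the chromosomes. A peak was a member when its summit lay in the first 10% or the last 10% of a chromosome, with the length of each of the 10 chromosomes taken up to the last peak of any list. These first and last stretches are called the outer ends, and the sequence between them the inner 80%. In all, 69479 of 398506 listed peaks (17.4%) were members. They comprised 29713 of the 165420 CPP2 peaks, 18595 of the 105867 THX20 peaks, 12540 of the 76032 C3H23 peaks and 8631 of the 51187 OBF4 peaks. Position alone chose them, so density, signal, grouping and overlap were not used in the choice.

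In DAP-seq (DNA affinity purification sequencing) a tagged protein is incubated with a library of purified genomic DNA, and the DNA it retains is sequenced. The 4 groups were the Halo-tagged factors THX20 (Zm00001d017420), OBF4 (Zm00001d012553), CPP2 (Zm00001d031008) and C3H23 (Zm00001d008323), each made from its full-length coding sequence, cloned from leaf cDNA, in wheat germ extract. All 4 were given B73 leaf DNA (14 DAG), B73 being the inbred line of the maize reference genome, and the submitters describe them as acting downstream of the endosperm regulators ZmNAC128 and ZmNAC130. There was 1 library per factor, so no value has a replicate check and no p-value is given. The intervals are 95% intervals for counting error of peaks only. Neighbouring peaks are not independent, so the intervals are too narrow. Sites in naked leaf DNA show what each protein can bind, not what it occupies in endosperm.

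Maize chromosomes carry most of their genes towards the ends, while the sequence around the centromeres is rich in retrotransposons and heavily methylated. Cytosine methylation can block some factors from their motifs, and it is lost when DNA is amplified before binding, which the labels do not settle here. Going by the names, THX20 is a trihelix protein, a family whose members bind GT elements, and OBF4 a bZIP protein named after the ocs element. CPP2 bears the name of the cysteine-rich CPP family, which binds DNA through CXC domains in other plants, and C3H23 that of the CCCH zinc fingers. Maize chromosomes are usually numbered from the tip of the short arm, so the first end is by that convention the short arm; the lists themselves do not state this. The genome build is not given in the sources used here, so no site is assigned to a gene and no sequence is printed. Positions are those of the deposited lists, counted from 1.

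The density of sites at the chromosome ends was described first. Each factor had fewer peaks per Mb in the outer ends (421 Mb in all) than in the inner 80% of the chromosomes (1685 Mb). C3H23, the zinc finger protein, had the lowest ratio, with 29.8 peaks per Mb in the outer ends and 37.2 per Mb in the inner 80%, a ratio of 0.80 (0.785 to 0.816). OBF4, the bZIP factor, had 20.5 per Mb in the outer ends and 24.9 in the inner 80%, a ratio of 0.823 (0.804 to 0.842). THX20, the trihelix factor, had 44.1 and 51.2 per Mb in the same order, a ratio of 0.863 (0.849 to 0.877). CPP2 had 70.5 and 79.6 per Mb, a ratio of 0.887 (0.876 to 0.898). The intervals of C3H23 and OBF4 overlapped each other and lay below those of THX20 and CPP2; whether the factors differ was not tested.

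The lower density at the ends was found on nearly every chromosome. Of the 20 chromosome ends, all 20 were below the inner 80% of their own chromosome for CPP2 and for OBF4, and 19 of 20 for C3H23 and for THX20. The exception was the same end for both, the first end of chromosome 4. There C3H23 had 40.9 peaks per Mb, against 37.5 in the inner part of chromosome 4, a ratio of 1.09 (1.02 to 1.16). THX20 had 53.4 per Mb there, against 52.8, a ratio of 1.01 (0.954 to 1.07), which counting error does not separate from 1. The ends that were lower beyond counting error numbered 18 of 20 for THX20, 17 for C3H23, 15 for OBF4 and 14 for CPP2.

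**Figure D1:**
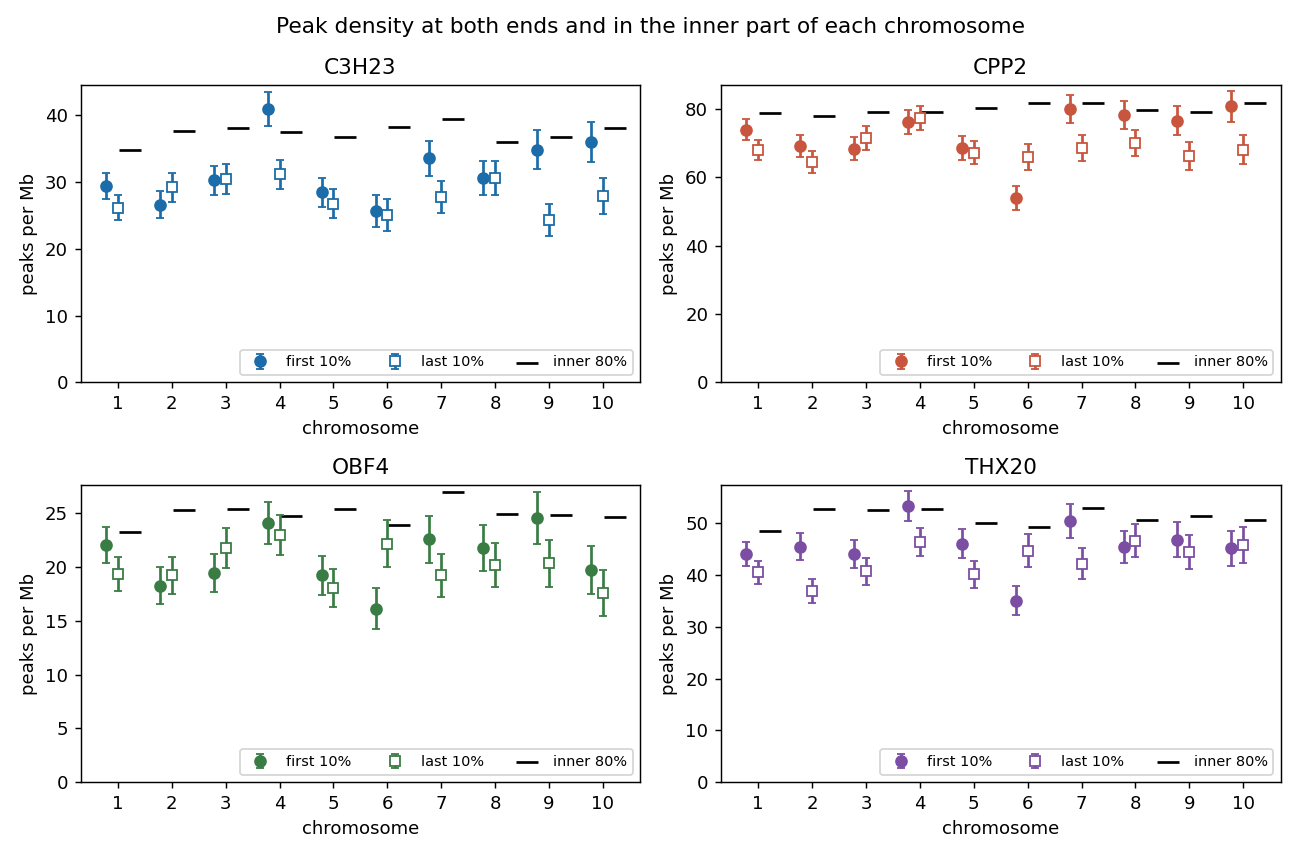
Peaks per Mb (vertical axis, from 0) at the first 10% (filled circles) and last 10% (open squares) of each chromosome (horizontal axis), with the inner 80% as a black bar; 1 panel per factor, error bars 95% counting intervals by the normal approximation. The first end of chromosome 4 stands above its black bar for C3H23, and the first end of chromosome 6 stands lowest for CPP2, OBF4 and THX20.

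The densest and the sparsest end of a list differed by 1.69 times for C3H23, 1.52 times for OBF4 and THX20 and 1.50 times for CPP2. For C3H23 the densest end was the first end of chromosome 4 (40.9 per Mb, 1011 peaks) and the sparsest the last end of chromosome 9 (24.3 per Mb, 388 peaks). For THX20 the densest was again the first end of chromosome 4 (53.4 per Mb, 1319 peaks). For CPP2 it was the first end of chromosome 10 (80.6 per Mb, 1217 peaks) and for OBF4 the first end of chromosome 9 (24.6 per Mb, 393 peaks). The first end of chromosome 6 was the sparsest for 3 factors, with 53.8 CPP2, 16.1 OBF4 and 35.1 THX20 peaks per Mb. C3H23 was also low there, at 25.7 per Mb. Across the 20 ends, the ratio to the inner part was ordered most alike in C3H23 and CPP2 (Spearman 0.815, Pearson 0.746) and least alike in THX20 and CPP2 by rank (Spearman 0.451, Pearson 0.630). These are descriptions over 20 ends that share the same DNA and mappability.

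Within the outer ends the density did not climb steadily towards the inner part. In steps of 1% of chromosome length, all 10 steps of both ends lay below the inner 80% for every factor. C3H23 ran from 28.2 to 34.1 per Mb over the first end, with its highest value in the outermost step, and from 25.6 to 29.8 over the last end. CPP2 ran from 68.4 to 77.0 over the first end and from 65.9 to 72.9 over the last end. THX20 ran from 41.1 to 49.9 over the first end and from 39.3 to 46.2 over the last end. OBF4 ran from 19.3 to 22.1 over the first end, and from 18.8 to 23.5 over the last end with its highest value at the tip.

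**Figure D2:**
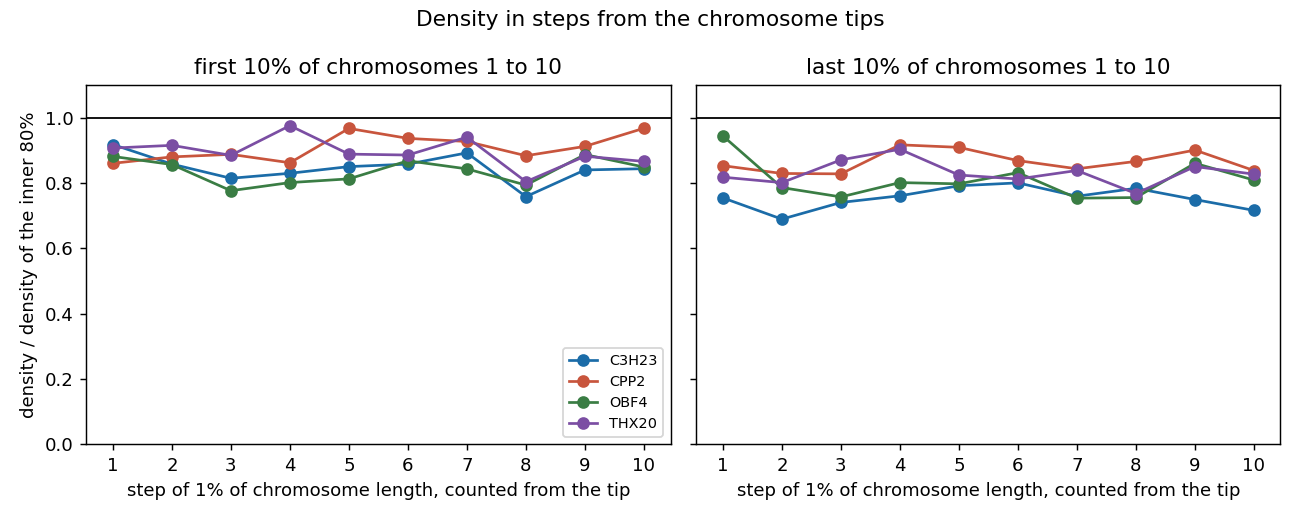
Density in steps of 1% of chromosome length counted from the tip (horizontal axis), divided by the density of the inner 80% of the same list (vertical axis, the black line marks 1), for the first ends (left) and last ends (right) of 10 chromosomes pooled. All points lie below 1, and OBF4 at the tip of the last end reaches 0.944.

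The outermost 1 Mb was then set against the sequence next to it, a choice made after the steps were seen. OBF4 was denser at the tips of the last ends, also with any 1 chromosome left out. In the outermost 1 Mb of the last ends OBF4 had 26.8 peaks per Mb, against 19.5 in the 14 Mb next to it, a ratio of 1.38 (1.21 to 1.56). At the first ends it had 24.3 in the outermost 1 Mb, against 20.2, a ratio of 1.20 (1.05 to 1.37), which rested on chromosome 5: without it the values were 22.4 and 20.4, a ratio of 1.1 (0.947 to 1.27). C3H23 had 36.3 per Mb at the tip of the first ends, against 31.1, a ratio of 1.17 (1.05 to 1.30). Its interval included 1 without chromosome 3 (1.12, 0.994 to 1.25) or chromosome 8 (1.11, 0.987 to 1.25). At the last ends C3H23 had 29.5 against 27.6, where the interval reached below 1 (0.947 to 1.20). For CPP2 and THX20 the tip did not differ from the next 14 Mb beyond counting error at either end (ratios of 0.975 and 1.01 for CPP2, 1.0 and 1.07 for THX20, first ends then last ends). Without chromosome 5, however, the THX20 ratio at the last ends was 1.12 (1.02 to 1.24). The fullest 1 Mb bin of the outer ends for OBF4 was such a tip, chromosome 5 from 1 to 1000000, with 41 peaks against a median of 20 over 407 bins.

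The first and the last ends were then set against each other. Over 10% ends, the first ends were denser for 3 factors beyond counting error. C3H23 had 31.5 peaks per Mb at the first ends and 28.1 at the last ends, a ratio of 1.12 (1.08 to 1.16). THX20 had 45.8 and 42.5 per Mb, a ratio of 1.08 (1.05 to 1.11), and CPP2 72.2 and 68.8, a ratio of 1.05 (1.03 to 1.07). With ends of 5% the CPP2 ratio was 1.03, and its interval then included 1 (0.995 to 1.06). OBF4 had 20.8 and 20.2 per Mb, a ratio of 1.03 whose interval included 1 (0.991 to 1.08). That interval lay above 1 with the outermost 1% left out (1.05, 1.001 to 1.1) and without chromosome 3 (1.05, 1.01 to 1.1).

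This difference was not shared by all chromosomes. In each list the first end was denser on 7 of 10 chromosomes. The last end was denser on 3 for CPP2, OBF4 and THX20 and on 2 for C3H23, which had 555 peaks at either end of chromosome 8. Chromosomes 1, 5, 7 and 9 had the denser first end in all 4 lists, and no chromosome had the denser last end in all 4. The largest ratio between ends for C3H23 was on chromosome 9, with 34.9 peaks per Mb at the first end and 24.3 at the last end, a ratio of 1.44 (1.26 to 1.64). For the other 3 factors the largest ratio between ends was on chromosome 6 and ran the other way. In peaks per Mb the largest CPP2 difference was on chromosome 10, with 80.6 at the first end and 68.0 at the last end. OBF4 had 16.1 per Mb at the first end of chromosome 6 and 22.2 at its last end, a ratio of 0.728 (0.622 to 0.851). THX20 had 35.1 and 44.8 there (0.783, 0.703 to 0.872) and CPP2 53.8 and 65.9 (0.816, 0.748 to 0.890). With chromosome 6 left out, the OBF4 ratio of first over last ends was 1.06 (1.02 to 1.11).

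The first end of chromosome 6 held the emptiest bins of 1 Mb. From 12000001 to 13000000 there were 3 C3H23, 6 CPP2, 0 OBF4 and 2 THX20 peaks, the emptiest bin of the outer ends for each list. From 13000001 to 14000000 there were 14, 9, 0 and 9 peaks in the same order. The medians over the 407 bins of the outer ends were 29, 70, 20 and 44. The 3 longest stretches of the outer ends without a peak of any factor all lay here: 1195 kb from 11535360 to 12730816, 700 kb from 13682605 to 14382229 and 656 kb from 12790705 to 13446403. Stretches of at least 50 kb without any peak took up 21.7% of the first end of chromosome 6 and 3.20% of the first ends of the other 9 chromosomes. The files do not show whether such stretches are unsequenced, blacklisted or unbound, and this was not tested.

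Long empty stretches were more frequent at the last ends and at the first end of chromosome 6. There were 241 of at least 50 kb in the outer ends, 0.572 per Mb, against 637 in the inner 80%, 0.378 per Mb, a ratio of 1.51 (1.30 to 1.76). They covered 4.83% of the outer ends and 2.92% of the inner 80%. The first ends had 103 and the last ends 138, a ratio of 0.746 (0.573 to 0.970). Without chromosome 6, the first ends had 0.419 per Mb, against 0.379 in the inner part, a ratio of 1.11 whose interval included 1 (0.865 to 1.40), and the last ends 0.662 per Mb, a ratio of 1.75 (1.43 to 2.12). They then covered 3.20% of the first ends and 4.99% of the last ends, against 2.93% of the inner part. Sparser peaks leave more long gaps, and none of these ratios was set against the number that the lower density alone would give.

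The fullest bins for C3H23 and THX20 were one and the same. The bin of chromosome 4 from 9000001 to 10000000 was the fullest of the outer ends for C3H23 (75 peaks, median 29) and for THX20 (102 peaks, median 44). The bin before it, from 8000001 to 9000000, held 47 C3H23 and 98 THX20 peaks. CPP2 had 81 and 84 peaks in these bins and OBF4 34 and 33. The fullest bin for CPP2 was on the same chromosome but at its last end, from 227000001 to 228000000, with 113 peaks. Over the bins of the outer ends, peak numbers of C3H23 and THX20 went together with a Spearman correlation of 0.407 (Pearson 0.496), against 0.577 (Pearson 0.595) over 1674 inner bins. For OBF4 and THX20 it was 0.243 (Pearson 0.327) in the outer and 0.435 (Pearson 0.467) in the inner bins. For OBF4 and CPP2 the 2 parts gave 0.308 (Pearson 0.353) and 0.304 (Pearson 0.319).

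The strength of the sites at the ends was taken from the authors' signal per peak, a value of unstated scale that ranks peaks within a list. For C3H23 and OBF4 the ratio of ends to inner part was lowest in the strongest of 10 classes, and for CPP2 and THX20 it was not. When each list was divided into 10 equal classes by signal, the density ratio of outer ends to inner 80% for C3H23 was 0.640 (0.598 to 0.683) in the strongest class and 0.956 (0.902 to 1.01) in the weakest. For OBF4 it was 0.726 (0.672 to 0.784) in the strongest class and 1.01 (0.943 to 1.08) in the weakest. CPP2 ran between 0.861 and 0.931, with the 2 strongest classes highest. THX20 stood at 0.959 (0.913 to 1.01) in the strongest class and between 0.812 and 0.898 in the other 9.

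**Figure D3:**
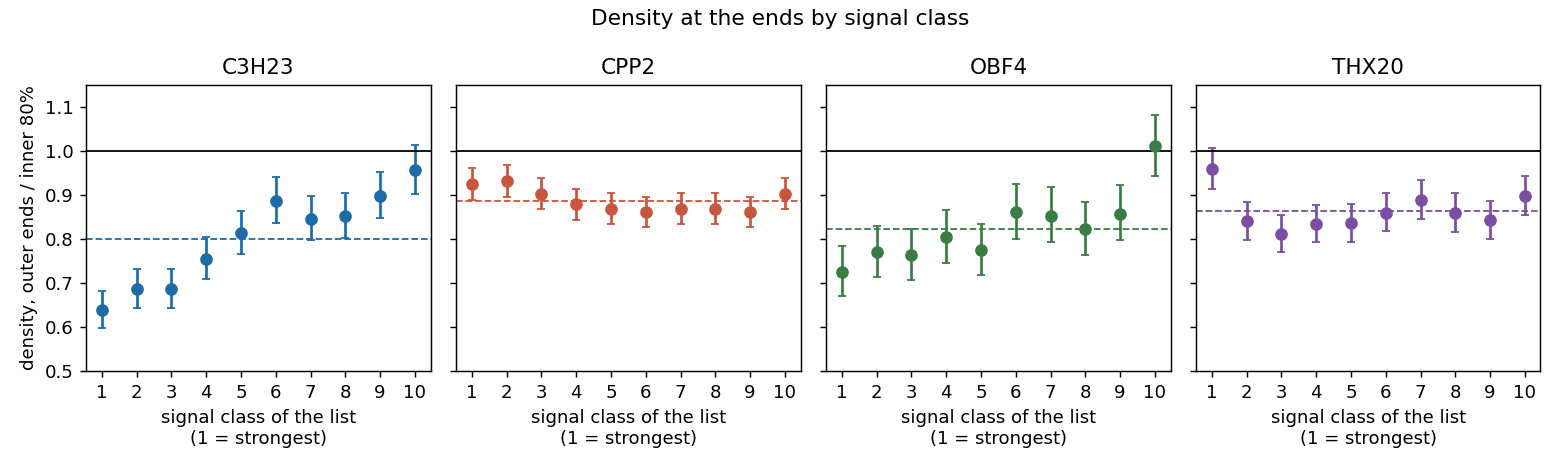
Density in the outer ends over density in the inner 80% (vertical axis, drawn from 0.5; black line at 1, dashed line the ratio of the whole list) for 10 classes of each list by the authors' signal (horizontal axis, class 1 strongest); bars are 95% counting intervals. C3H23 runs from 0.640 in class 1 to 0.956 in class 10, while CPP2 stays between 0.861 and 0.931.

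A wider class, the 25% of each list with the highest signal, was counted as well. Of the C3H23 peaks, 21.4% (Wilson interval 20.7 to 22.1%) of those in the outer ends were in this class, against 25.7% (25.4 to 26.1%) of the inner ones. For OBF4 the shares were 23.2% (22.3 to 24.1%) and 25.4% (25 to 25.8%). For CPP2 they were 25.8% (25.3 to 26.3%) and 24.8% (24.6 to 25%), and for THX20 25.4% (24.8 to 26.0%) and 24.9% (24.6 to 25.2%). The median signal was 34.0 in the outer ends and 36.9 in the inner 80% for C3H23, 30.0 and 31.0 for OBF4, 41.3 and 40.9 for CPP2, and 31.9 and 32.0 for THX20. In the top 1% of each list the density ratio was 0.579 (0.438 to 0.754) for OBF4, with 64 such peaks in the outer ends and 442 in the inner part, and 1.17 (1.04 to 1.32) for CPP2, with 371 and 1267. For THX20 it was 1.12 (0.967 to 1.30) and for C3H23 0.883 (0.728 to 1.06). The C3H23 ratio was thus lowest in the strongest class as a whole but not among its very strongest peaks. There its interval included both the 0.80 of the whole list and 1. Of the 100 strongest peaks of each list, 32 CPP2, 21 C3H23, 21 THX20 and 9 OBF4 peaks lay in the outer ends. The outer ends held 18.0% of all CPP2, 16.5% of all C3H23, 17.6% of all THX20 and 16.9% of all OBF4 peaks.

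The 2 ends also differed in strength for C3H23. There, 22.8% (21.8 to 23.8%) of the peaks at first ends and 19.8% (18.8 to 20.8%) of those at last ends were in the strongest 25%, and the first end had the higher share on 9 of 10 chromosomes. By single end the C3H23 share ran from 16.9% at the last end of chromosome 5 to 26.3% at the first end of chromosome 10. Among the very strongest C3H23 peaks the first ends did not lead. The top 1% held 65 first-end peaks (0.981%, 0.770 to 1.25%) and 71 last-end peaks (1.20%, 0.953 to 1.51%), with overlapping intervals. Of the 100 strongest, 7 were at first ends and 14 at last ends. For the share in the strongest 25%, the intervals of first and last ends overlapped for CPP2, OBF4 and THX20. In the strongest of 10 classes, however, the THX20 density ratio of first to last ends was 1.18 (1.08 to 1.29), against 1.08 for its whole list. For CPP2 and OBF4 that class gave 1.02, with intervals that included 1. OBF4 had its highest share of strong peaks, 30.2% (25.2 to 35.9%), at the first end of chromosome 6, its sparsest end. CPP2 and THX20 had their lowest shares at that same end, 19.3% and 20.5%.

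The strongest single sites at the ends were these, with the authors' signal for each. For THX20 the strongest were at the last end of chromosome 2 from 220675206 to 220675406 (signal 2466.3), the last end of chromosome 1 from 297291823 to 297292023 (2070.6) and the first end of chromosome 4 from 14149511 to 14149711 (1216.8). These were the 2nd, 3rd and 9th strongest of the whole list on chromosomes, and none had a summit of another factor within 200 bp. The chromosome 2 site stood 95 bp after a weaker THX20 peak of signal 103.7. Before this pair, with a gap of 6290 bp, lay 3 more THX20 peaks. A peak of signal 117.0 was followed 95 bp later by one of 1197.2 and a further 32 bp later by one of 1112.8. A summit 95 bp before a much stronger one thus occurred at both places, which were noticed after their values were seen. The weaker summits, of 103.7 and 117.0, were not weak for the list, as its strongest signal class begins at 85.4.

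For CPP2 the strongest end site, at the last end of chromosome 1 from 285338079 to 285338279 (signal 764.1), was also the strongest of its list and had a C3H23 summit within 200 bp. The next were at the first end of chromosome 7 from 8461644 to 8461844 (587.9) and the first end of chromosome 4 from 3537658 to 3537858 (582.2). For C3H23 they were at the last end of chromosome 4 from 236068414 to 236068614 (572), shared with OBF4, the first end of chromosome 10 from 4172659 to 4172859 (541.2), shared with THX20, and the first end of chromosome 8 from 1003405 to 1003605 (515.1). For OBF4 they were at the first end of chromosome 7 from 940049 to 940249 (562.4), the last end of chromosome 2 from 235159022 to 235159222 (542.3) and the first end of chromosome 1 from 24183126 to 24183326 (414.8). The OBF4 sites were the 10th, 15th and 38th strongest of their list, and none was shared.

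Grouping was described as the share of peaks with another summit of the same factor within 1 kb. The share was lower at the ends for C3H23, 23.6% (22.9 to 24.4%) in the outer ends against 29.6% (29.2 to 29.9%) in the inner 80%. The shares were 40.8% (40.1 to 41.5%) and 41.8% (41.5 to 42.1%) for THX20, 41.4% (40.9 to 42.0%) and 42.0% (41.8 to 42.3%) for CPP2, and 11.8% (11.1 to 12.5%) and 12.8% (12.5 to 13.1%) for OBF4. Sparser peaks have fewer close neighbours, so each share was divided by the one that peaks spread evenly at the density of their own end or inner part would give. By this measure grouping at the ends was above that of the inner part for 3 factors. The share itself was not higher at the ends in any list, so these ratios above 1 come from the lower even spread there. THX20 stood at 4.79 times the even spread in the outer ends and 4.29 times in the inner 80%, a ratio of 1.12 (1.09 to 1.14). CPP2 stood at 3.13 and 2.86 times (1.1, 1.07 to 1.12) and OBF4 at 2.90 and 2.63 times (1.1, 1.03 to 1.18). C3H23 stood at 4.02 and 4.12 times, a ratio of 0.976 whose interval included 1 (0.938 to 1.01). Among the stronger 50% of the list, the OBF4 ratio was 1.01 (0.897 to 1.14) and the C3H23 ratio 1.05 (0.995 to 1.12).

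Grouping was also set side by side for first and last ends. C3H23 had 26.0% (24.9 to 27.0%) of its first-end and 21.0% (19.9 to 22%) of its last-end peaks in groups. After division by the even spread the ratio of first to last ends was 1.09 (1.02 to 1.18). THX20 had 42.4% (41.4 to 43.4%) and 39.2% (38.2 to 40.2%), with the higher share at the first end on 10 of 10 chromosomes, and after division the ratio was 1.01 (0.961 to 1.05). CPP2 had 41.7% and 41.1%, and after division the ratio was 0.962 (0.929 to 0.997). OBF4 had 11.5% and 12.1%, and the ratio was 0.914 (0.806 to 1.04). The first end of chromosome 6 had the highest grouped share of all 20 ends for C3H23 (34.5%, 30.2 to 39.0%) and for OBF4 (17.8%, 13.8 to 22.7%). Groups were small. The largest C3H23 group at the ends had 7 peaks, on chromosome 4 from 13329145 to 13332211, the largest CPP2 and THX20 groups had 6, and no OBF4 group had more than 3. One OBF4 group of 3 lay close to the tip of chromosome 1, from 306603176 to 306603639, with signals of 116.0 to 201.3.

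The distances between neighbouring summits were counted to the base pair. For THX20, the distances that lead its whole list took a smaller share at the ends. The 5 most frequent distances between neighbouring THX20 summits in the whole list were 153, 182, 181, 191 and 175 bp. Together they made up 2.73% of the neighbour distances of 15 to 1000 bp in the outer ends (112 of 4104) and 6.79% of those in the inner 80% (1317 of 19404), a ratio of 0.402 (0.329 to 0.488). The distance of 181 bp was found 15 times in the outer ends and 250 times in the inner part, a ratio of shares of 0.284 (0.156 to 0.477). The most frequent THX20 distance at the ends was another, 149 bp, found 36 times in the outer ends and 95 times in the inner part. The 5 leading distances of CPP2 took similar shares in both parts, 7.38% in the outer ends and 6.84% in the inner 80% (ratio 1.08, 0.975 to 1.19). Those of C3H23 took 2.46% and 2.20%. Those of OBF4 took 6.33% and 4.47%, a ratio of 1.42 whose interval included 1 (0.934 to 2.09). Its single distances ran from 0.185 (134 bp, 1 time in the outer ends) to 3.22 (153 bp, 12 times in the outer ends and 20 in the inner part). The 5 leading distances were picked by their counts over the whole list, most of which is inner, so that choice favours the inner part. The THX20 distance of 149 bp was picked by its count at the ends, which favours the ends. The cause of the THX20 difference was not tested.

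**Figure D4:**
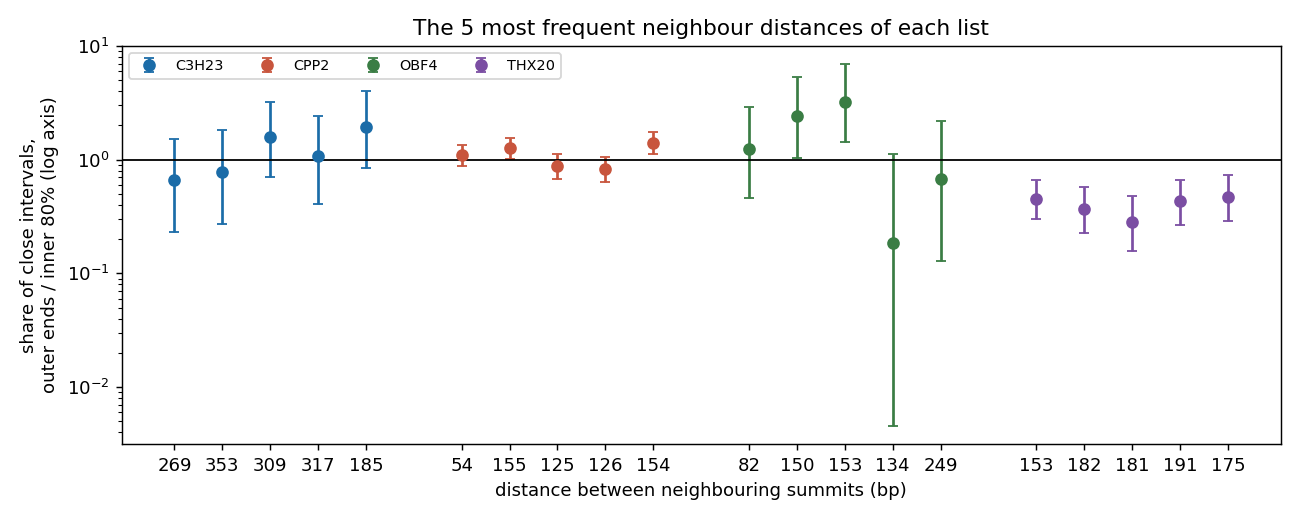
Share of all neighbour distances of 15 to 1000 bp taken by each of the 5 most frequent distances of a list (horizontal axis, bp, in order of frequency), outer ends over inner 80% (vertical axis, log scale, black line at 1); bars are 95% counting intervals. The 5 THX20 distances all lie below 1, between 0.284 and 0.471.

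Sites shared between factors were those with summits at most 200 bp apart, counted from the shorter list of each of 6 pairs. Counted this way, the share of C3H23 peaks with a THX20 summit was lower at the ends beyond counting error. For the other 5 pairs the intervals of the ends and the inner part overlapped. From the longer list, for which no intervals were made, 4.75% of CPP2 peaks had a C3H23 summit in the outer ends and 5.45% in the inner 80%. For THX20 peaks with a C3H23 summit the shares were 5.13% and 6.40%. They were higher at the ends for CPP2 peaks with a THX20 summit (2.73% and 2.65%) and THX20 peaks with an OBF4 summit (1.11% and 1.03%). With CPP2, 10.5% (9.96 to 11%) of C3H23 peaks in the outer ends were shared (1315 peaks), against 10.9% (10.7 to 11.1%) in the inner 80% (6831). With THX20, 7.15% (6.71 to 7.62%) of C3H23 peaks were shared in the outer ends (897) and 8.11% (7.90 to 8.33%) in the inner 80% (5084). Of OBF4 peaks, 4.90% (4.47 to 5.38%) were shared with C3H23 in the outer ends (423) and 5.01% (4.80 to 5.22%) in the inner part (2101). Of THX20 peaks, 4.81% (4.51 to 5.12%) had a CPP2 summit in the outer ends (894) and 4.44% (4.31 to 4.58%) in the inner 80% (3831). OBF4 with THX20 gave 2.21% (191 peaks) and 2.01% (844), and OBF4 with CPP2 1.67% (144) and 1.60% (673).

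Per Mb, shared sites were fewer at the ends in all 6 pairs, with ratios to the inner 80% from 0.706 (C3H23 with THX20) to 0.933 (THX20 with CPP2). Intervals included 1 for the pairs OBF4 with CPP2, THX20 with CPP2 and OBF4 with THX20. Because the ends are sparser, each number was also divided by the one an even spread would give. For this the other list was taken as evenly spread over the same chromosome's end or inner part. Measured this way over the whole lists, sharing was above the inner part for 4 of 6 pairs beyond counting error. For C3H23 with CPP2 and OBF4 with C3H23 the share of peaks itself was not higher at the ends. Their ratios above 1 therefore come from the lower even spread there. For THX20 with CPP2 and OBF4 with THX20 the share was higher at the ends (4.81% against 4.44% and 2.21% against 2.01%), but with overlapping intervals. The lower even spread also enters the ratios of these 2 pairs. OBF4 with THX20 stood at 1.25 times the even spread (1.08 to 1.44) in the outer ends and 0.990 times (0.924 to 1.06) in the inner 80%, a ratio of 1.27 (1.08 to 1.48). OBF4 with C3H23 stood at 4.09 and 3.38 times (1.21, 1.09 to 1.35), THX20 with CPP2 at 1.71 and 1.42 times (1.21, 1.12 to 1.30) and C3H23 with CPP2 at 3.73 and 3.47 times (1.08, 1.01 to 1.14). C3H23 with THX20 stood at 4.04 and 3.99 times, a ratio of 1.01 (0.943 to 1.09). OBF4 with CPP2 was below the even spread in both parts, 0.595 times (0.501 to 0.700) in the outer ends and 0.511 times (0.473 to 0.551) in the inner 80%, a ratio of 1.16 whose interval included 1 (0.965 to 1.40). In the stronger 50% of both lists that ratio was 0.875 (0.556 to 1.33). There the intervals also included 1 for OBF4 with C3H23 (1.23, 0.966 to 1.56) and for OBF4 with THX20 (1.40, 0.994 to 1.94). The lists share DNA and mappability, so these values do not show binding together.

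**Figure D5:**
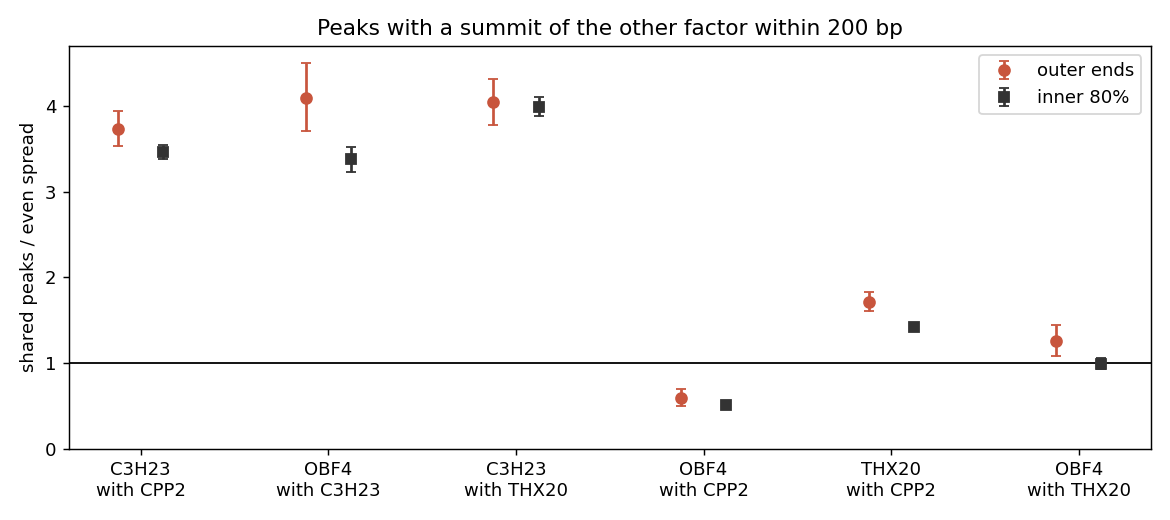
Number of shared peaks (summits within 200 bp) divided by the number an even spread would give (vertical axis, black line at 1) for 6 pairs of factors (horizontal axis), outer ends (circles, left) and inner 80% (squares, right); bars are 95% counting intervals. The largest gap between circle and square is that of OBF4 with C3H23, at 4.09 and 3.38.

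Sharing was then compared between first and last ends. The ratio of first to last ends, after division by the even spread, ran from 0.903 (OBF4 with THX20) to 0.989 (OBF4 with C3H23) in 5 pairs, with intervals that included 1. OBF4 with CPP2 stood at 0.689 times the even spread at first ends (87 peaks) and 0.492 times at last ends (57 peaks), a ratio of 1.40 whose interval reached below 1 (0.991 to 1.99). The signal of shared peaks was compared with that of the rest. The median signal of C3H23 peaks shared with any list was 1.06 times the median of peaks without such a neighbour in the outer ends and 0.973 times in the inner 80%. For CPP2 these ratios were 0.786 and 0.80, for OBF4 0.930 and 0.903, and for THX20 0.970 and 1.01. Exact distances between summits of different factors were counted too, and the most frequent one of each pair is given. C3H23 and THX20 summits stood 286 bp apart 12 times in the outer ends and 140 times in the inner part, a ratio of their shares of all pairs up to 600 bp of 0.527 (0.266 to 0.95). THX20 and CPP2 summits stood 482 bp apart 7 and 94 times (0.383, 0.150 to 0.820). OBF4 and C3H23 summits stood 12 bp apart 16 and 50 times (1.71, 0.909 to 3.05). OBF4 and THX20 summits stood 81 bp apart 10 and 32 times (1.60, 0.701 to 3.33). C3H23 and CPP2 summits stood 9 bp apart 19 and 80 times (1.25, 0.718 to 2.09). OBF4 and CPP2 summits stood 213 bp apart 3 and 18 times (0.882, 0.166 to 3.02). These distances, too, were picked by whole-list counts.

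Places with peaks of several factors were found by joining peaks. After overlapping peaks were joined, the outer ends held 58404 regions, of which 55060 (94.3%) had peaks of 1 factor, 3194 (5.47%) of 2, 148 of 3 and 2 of all 4. Regions of 3 or 4 factors numbered 0.356 per Mb in the outer ends and 0.522 per Mb in the inner 80%, a ratio of 0.683 (0.570 to 0.813). Those of exactly 3 factors made up 0.253% of all regions in the outer ends and 0.317% in the inner 80%. Sparser lists meet less often, and this ratio was not divided by an even spread. Of the regions with 3 factors, 88 held C3H23, CPP2 and THX20, 32 held C3H23, CPP2 and OBF4, 23 held C3H23, OBF4 and THX20, and 5 had no C3H23. The first ends held 74 regions of 3 or 4 factors and the last ends 76. Both regions of all 4 factors were at first ends. The region on chromosome 4 from 14850566 to 14851395 had strong C3H23 and THX20 peaks (signals 170 and 137.2, in the top 0.913% and 2.93% of their lists) and middling CPP2 and OBF4 peaks (36 and 28.1). The region on chromosome 7 from 3981716 to 3982218 had no strong peak: C3H23 was the best placed, in the top 48.5% of its list, and THX20 the lowest, in the top 95.0%.

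Among regions of 3 factors, 5 are given by best mean rank of signal. The first of them lay at the first end of chromosome 2 from 11720934 to 11721428, with signals of 157 for C3H23, 143.5 for CPP2 and 40.2 for OBF4. At the first end of chromosome 4, from 21620411 to 21620628, the starts of the C3H23, CPP2 and THX20 peaks lay at 21620411, 21620417 and 21620428, with CPP2 the strongest at 178. At the first end of chromosome 1, from 4996154 to 4996461, C3H23 (153.9) and THX20 (191.0) were both strong and CPP2 (43) was not. The last end of chromosome 4, from 232925369 to 232926139, held C3H23 (122), THX20 (118.1) and CPP2 (40). The last end of chromosome 8, from 166334908 to 166335488, held the one leading region without C3H23, with THX20 at 123, OBF4 at 88 and CPP2 at 38.4.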

How the data were processed

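DAP-seq peaks of 4 factors were analysed, 1 library each, grouped by sample title. The files carry other protein names than the titles do; which factor a list belongs to therefore rests on the titles and GEO's file records. The submitters' processing notes name Trimmomatic 0.39 and Bowtie2 2.4.1, with no order or settings. Which peak caller, control and genome build were used is not given in the sources used here. Deposited file names point to removal of blacklisted regions. The deposited 201 bp peaks carry a score, a signal of unstated scale, a −log10 p-value and a −log10 q-value (at least 3), all by the authors. Read depth is unknown.

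Summits lie 100 bp after the start. Ranks within a list are by signal. Density ratios have exact conditional binomial intervals, and shares have Wilson intervals. The even spread is a closed form, the probability that a summit falls within the window at the density of that chromosome's end or inner part. The alternatives were 5% ends, the stronger 50%, joined peaks, ends without the outermost 1%, ranking by −log10 p, 500 bp groups and 100 bp overlaps. Named sites are the 3 strongest end peaks per factor, the densest and sparsest ends, the largest differences between ends, the fullest bins, the 3 longest empty stretches, all regions of 4 factors and the 5 best of 3. The members and all choices were made with earlier results of these data known. The outermost 1 Mb, the 10 signal classes, the emptiest bins, the largest groups, the largest differences per Mb and the signal of shared peaks were added after seeing the data. Python 3.11.15, numpy 2.4.6, pandas 2.3.3, scipy 1.17.1 and matplotlib 3.10.9 were used, and the counting procedures were tested on simulated data.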

Additional observations from a re-analysis of the deposited data

Results flagged for a closer look

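Peaks on contigs outside the 10 chromosomes have no chromosome end and entered no comparison. They numbered 1658 in the CPP2 list, 1072 in the THX20 list, 805 in the C3H23 list and 609 in the OBF4 list, with no control library here to set them against.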

How the results depend on the processing

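No paired analysis was possible because the 4 libraries are of 4 different factors, so no replicate could be left out either. Of 146 alternative values for 22 results, 131 stayed within the counting interval of the reported value, 15 moved outside it, and none whose interval excluded 1 changed direction. Most of the alternatives left out a single chromosome and so shared most of their peaks with the reported value. The pooled count of 131 therefore says little about how stable the results are. Most of the values that moved came from the stronger 50% of each list, and most results taken there moved. Leaving out single chromosomes and taking the density of the surrounding 1 Mb for the even spread were chosen after seeing the data. The interval came to include 1 for the CPP2 ratio of first to last ends with ends of 5% (1.03), and, in the stronger 50%, for OBF4 grouping and for the overlap of OBF4 with C3H23 (1.23) and with THX20 (1.40). It came to exclude 1 for the OBF4 ratio of first to last ends with the outermost 1% left out (1.05) or without chromosome 3 (1.05) or 6 (1.06). The density ratio of outer ends to inner 80% moved to 0.767 for OBF4, 0.716 for C3H23 and 0.901 for CPP2 in the stronger 50% of each list, to 0.819 for C3H23 and 0.894 for THX20 with outer ends of 5%, to 0.779 for C3H23 and 0.876 for CPP2 without chromosome 4, and to 0.901 for CPP2 without chromosome 6. The C3H23 ratio of first to last ends was 1.20 in the stronger 50%. With the same stronger 50%, the grouping ratio was 1.05 for C3H23, 1.01 for OBF4 and 1.22 for THX20, and the overlap ratio 1.35 for C3H23 with CPP2, 0.875 for OBF4 with CPP2 and 1.44 for THX20 with CPP2, whose overlap there stood at 1.19 times the even spread in the outer ends and 0.824 times in the inner 80%. Of these, C3H23 grouping and OBF4 with CPP2 changed side of 1, with intervals that included 1 in both settings. The causes were not tested. The unknown read depth limits every count of peaks.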
